A study of Mus musculus with 2 samples.

Results

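The genes described here encode receptors and phosphatases that restrain signalling from the B cell antigen receptor. They are 8 named genes, Cd22, Siglecg, Cd72, Fcgr2b, Ptpn6, Ptprj, Cd5 and Lair1. The members are all the probe sets that the platform annotation gives to 1 of these genes alone, which are 19 among 34945 sets with 1 gene each (8 of 18193 genes). No probe set that names several genes holds any of them. The rule names genes and uses no measured value, although the gene set was drawn up with earlier results of these data known.

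The series holds 2 Affymetrix 3′ expression arrays of mouse B cells, 1 with a miR-155 knockout label and 1 with a wild-type label. The animals were male, of a C57 background from the Jackson Laboratory, and the cells of both groups received cycloheximide, an inhibitor of translation elongation, at 100 ug/ml for 8 min before harvest. The labels describe the culture in different ways, as activated B cells and as haematopoietic progenitors kept with granulocyte colony-stimulating factor and stem cell factor for 6 days. They name no activating stimulus, nor is pooling of animals stated in the sources used here. The titles and genotype entries give the assignment used here, while the source names give the opposite genotype for both arrays, so every sign below turns over if the source names are right.

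Inhibitory receptors of B cells carry short tyrosine motifs in their cytoplasmic tails, called immunoreceptor tyrosine-based inhibitory motifs. When these are phosphorylated by kinases of the SRC family, they recruit the tyrosine phosphatase SHP-1 or the inositol phosphatase SHIP1, which dampen calcium entry and the signals downstream of the antigen receptor. CD22 and CD72 are known to act mainly through SHP-1, and the Fc receptor FcγRIIB mainly through SHIP1. The gene set is not uniform. Ptpn6 encodes SHP-1 itself, a cytosolic enzyme and not a receptor. Ptprj encodes CD148, a receptor-type tyrosine phosphatase without such a motif, which can also activate SRC-family kinases.

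The microRNA that distinguishes the groups is shown because its seed, the stretch that pairs with target transcripts, defines which transcripts it can recognise directly. It is the 5p arm from RefSeq on GRCm38.p6, chr16:84714143-84714165, plus strand, with the seed (bases 2 to 8) in capitals.

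mmu-miR-155-5p: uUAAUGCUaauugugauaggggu

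Mir155hg, the transcript from which this microRNA is cut, was read at 10.88 on the knockout-labelled array and 6.63 on the wild-type-labelled array (log2 intensity). The targeted gene thus ran opposite to the genotype label. Its probe set checks the label only if it lies within the deleted segment, and its place was not determined. Inpp5d, the gene of SHIP1 and a reported target of miR-155, had levels of 11.03 and 11.39. Spi1 and Bach1, also reported targets, were likewise lower on the knockout-labelled array. Spi1 had levels of 10.18 and 11.06, and the sets of Bach1 had 9.37 and 10.44, and 7.34 and 7.68. Whether the labels are exchanged was not tested. All values below are log2 intensities, paired levels give the knockout-labelled array first, and each difference is the knockout-labelled array minus the wild-type-labelled array. With 1 array per label there is no spread between replicates and no test, so sizes are given as descriptions and the number of arrays limits their precision.

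Among the 8 genes, 6 were expressed and differed little between the arrays, 3 in each direction. A probe set counted as expressed where its mean level over both arrays reached 6.71, the median level of the non-control sets. By this rule 12 of the 19 probe sets passed, for Cd22, Siglecg, Cd72, Fcgr2b, Ptpn6 and Ptprj, and 7 did not. The 12 expressed sets differed by -0.35 to 0.24, and 0 of them reached a difference of 0.5 (1.41-fold) in either direction. Over all 19171 expressed probe sets 1.93% did, so a count of 0 of 12 is near the background. Of the 12 sets 5 were higher on the knockout-labelled array, against 58.8% of all expressed probe sets. On the level of genes, each taken at its probe set with the highest mean level, 3 of 6 were higher, against 56.9% of expressed genes. The median difference of the 6 genes was 0.01, against 0.03 over all 10717 expressed genes.

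**Figure D1:**
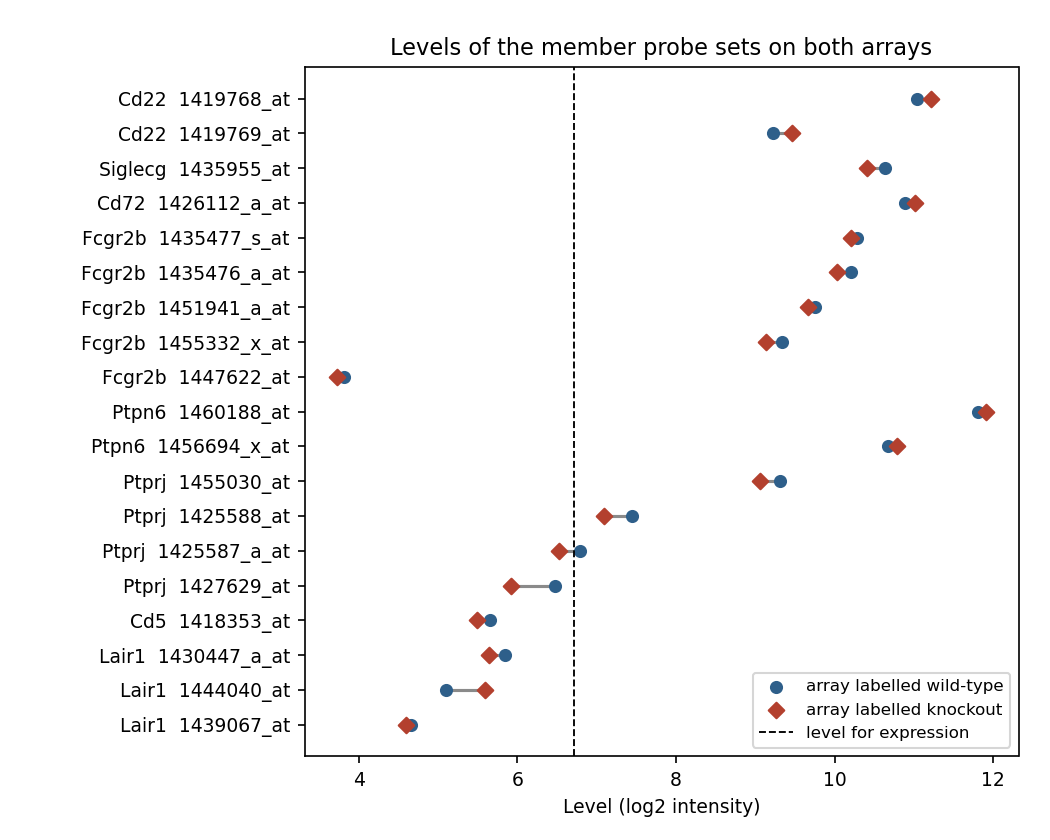
Levels (log2 intensity, horizontal axis) of the 19 member probe sets on the knockout-labelled array (red diamonds) and the wild-type-labelled array (blue circles), with a dashed line at the level for expression, 6.71. The symbols of a probe set lie close together, and all sets of Cd5 and Lair1, 1 of Fcgr2b and 2 of Ptprj have a mean left of the line.

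The 2 sialic acid receptors of B cells differed in opposite directions. Cd22 encodes a lectin of the Siglec family that binds sialic acid in α2,6 linkage and holds back the antigen receptor. Its probe set 1419768_at had a level of 11.22 on the knockout-labelled array and 11.04 on the wild-type-labelled array, a difference of 0.17 (1.13-fold). Its other set, 1419769_at, had levels of 9.46 and 9.22, a difference of 0.24 (1.18-fold). Both sets were thus higher on the knockout-labelled array. They were designed on the same transcript accession and so are not independent readings. Siglecg encodes Siglec-G, a related lectin known for restraining B-1 cells. Its only probe set, 1435955_at, had levels of 10.41 and 10.64, a difference of -0.23 (1.17-fold lower). Among the differences of all expressed probe sets, those of Cd22 lay at percentiles 81.9 and 90.2 and that of Siglecg at percentile 6.87. Each lay inside the central 95% of these differences, which ran from -0.38 to 0.39.

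Cd72 was slightly higher on the knockout-labelled array. It encodes a C-type lectin-like receptor of B cells whose ligands include the semaphorin CD100. Its probe set 1426112_a_at had levels of 11.01 and 10.88, a difference of 0.13 (1.09-fold), at percentile 73.2 of expressed probe sets. No other probe set read this gene alone.

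Fcgr2b was slightly lower on the knockout-labelled array with each of its 4 expressed probe sets. It encodes FcγRIIB, the inhibitory receptor for IgG complexes, through which secreted antibody restrains B cells. The set with the highest level, 1435477_s_at, had levels of 10.21 and 10.29, a difference of -0.08. The set 1435476_a_at had levels of 10.03 and 10.20, a difference of -0.18. The sets 1451941_a_at (9.66 and 9.75) and 1455332_x_at (9.14 and 9.33) differed by -0.09 and -0.20. These 4 expressed sets lay between percentiles 9.05 and 23.7 of expressed probe sets. The remaining set, 1447622_at, was far under the level for expression (3.72 and 3.82), and no direction is drawn from it. Of the 5 sets, 3 share an accession, and the suffixes _s_at and _x_at mark sets whose probes may also match other transcripts, among which the related Fc receptor genes are candidates by sequence. Fcgr3 (5.66 and 5.84) and Fcgr4 (6.14 and 6.59), chosen after their values were seen, were under the level for expression on both arrays, and Fcgr1 (6.69 and 6.89), chosen in the same way, had a mean just above it and a difference of -0.20.

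Ptpn6 was slightly higher on the knockout-labelled array. Its phosphatase SHP-1 is the shared effector of CD22, CD72 and Siglec-G. The set 1460188_at had levels of 11.91 and 11.81, a difference of 0.10 (1.07-fold). The set 1456694_x_at had levels of 10.79 and 10.67, a difference of 0.12 (1.09-fold). The sets differed from each other by 0.014, less than the median disagreement of 0.084 between the 2 highest expressed probe sets of a gene over 4906 genes. As an _x_at set, 1456694_x_at may also match other transcripts, so this closeness is not shown to come from independent readings.

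Ptprj had the lowest differences among the expressed members. Its product CD148 removes phosphate from SRC-family kinases and overlaps in this role with CD45, and it is also made by macrophages. The set with the highest level, 1455030_at, had levels of 9.06 and 9.32, a difference of -0.25 (1.19-fold lower). The set 1425588_at had levels of 7.10 and 7.45, a difference of -0.35 (1.28-fold lower). These lay at percentiles 5.65 and 2.96 of expressed probe sets. Of the 2 sets with a mean under the level for expression, 1425587_a_at had levels of 6.52 and 6.79, a mean 0.056 below that level, and 1427629_at had levels of 5.92 and 6.48. Both arrays were under the level for expression with 1427629_at, so no fold is given and no direction is drawn from it. Its difference of -0.56 was the only one of the 19 to reach 0.5, against 2.09% of the 15774 probe sets under that level. Both expressed sets of Ptprj were thus lower on the knockout-labelled array, and they differed from each other by 0.097.

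**Figure D2:**
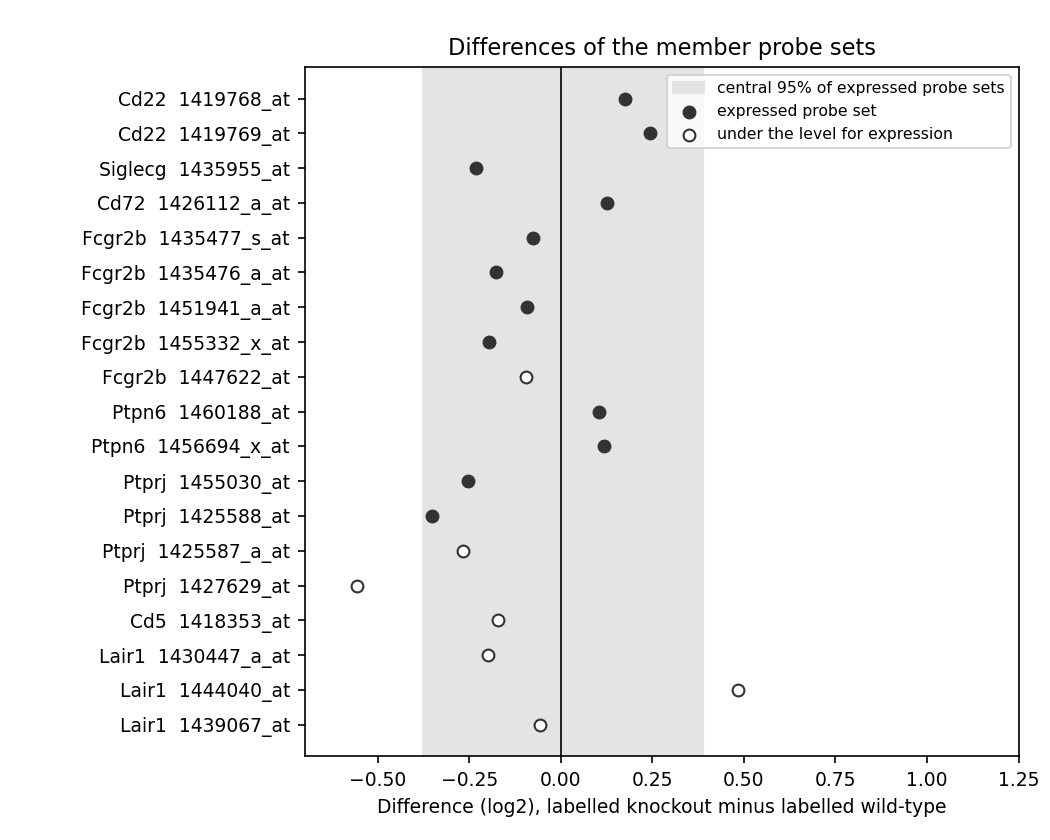
Difference of each member probe set (log2, labelled knockout minus labelled wild-type, horizontal axis), filled where expressed and open where under the level for expression, over a grey band from -0.38 to 0.39 that holds the central 95% of expressed probe sets. All 12 filled points lie inside the band, and 1 set each of Ptprj (-0.56) and Lair1 (0.48) lies outside it with open symbols.

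Cd5 and Lair1 were under the level for expression on both arrays with every probe set. Cd5 encodes a scavenger receptor of T cells and B-1a cells that dampens antigen receptor signals. Its only set, 1418353_at, had levels of 5.49 and 5.66. Of 8 other genes known from B-1a or innate-like B cells that were measured, 7 were expressed. Of these 6 were lower on the knockout-labelled array, whereas 56.9% of all expressed genes were higher. Cd9, a tetraspanin gene, was lowest (-0.59) and Spn, the gene of CD43, highest (0.07). Of the 7 only Cd9 lay outside the central 95% of expressed probe sets. Over all expressed genes 1.31% were lower by 0.5 or more. Whether the share of B-1a cells differed was not tested. Lair1 encodes a receptor for collagens that is found on many leukocytes. Its set 1430447_a_at had levels of 5.64 and 5.84, and 1439067_at had levels of 4.60 and 4.66. The third set, 1444040_at, had levels of 5.59 and 5.10, the reverse order. Its difference of 0.48 lay at percentile 99.1 of probe sets under the level for expression, and the disagreement among the sets of Lair1 reached 0.68. No direction is drawn for Cd5 or Lair1 at these levels. The table holds no detection call, so a level in this range does not show that a transcript was absent.

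The expressed members can be set against each other because each difference is taken within the same probe set. As a yardstick, the 2 highest expressed probe sets of a gene disagreed by 0.31 at the 95th percentile. Of the 15 pairs of expressed members 6 (40.0%) were further apart than that, against 19.7% of all pairs of expressed genes. Genes are not replicates, so these shares describe 2 arrays. The 6 pairs each set Siglecg or Ptprj against Cd22, Cd72 or Ptpn6. The widest was Cd22 against Ptprj (0.43), followed by Cd22 against Siglecg (0.40). Cd22, Cd72 and Ptpn6 lay within 0.070 of each other, and Siglecg and Ptprj within 0.024. Fcgr2b lay between these groups, with no pair past the yardstick.

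The phosphatases of the inhibitory arms differed in opposite directions. Inpp5d (SHIP1) had a second probe set, 1424195_a_at, with levels of 9.45 and 9.81, so that its sets differed by -0.36 and -0.35. The gap between Ptpn6 and Inpp5d was 0.47 and thus past the yardstick of 0.31. CD22 and CD72, which are known to signal through SHP-1, had genes on the same side as Ptpn6, while Siglecg, whose product also binds SHP-1, did not. That side held 56.9% of all expressed genes. The differences of Ptpn6 and Inpp5d lay inside the central 95% of expressed probe sets, so a shared side shows no joint change. Fcgr2b was on the same side of 0 as Inpp5d, with a smaller difference.

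**Figure D3:**
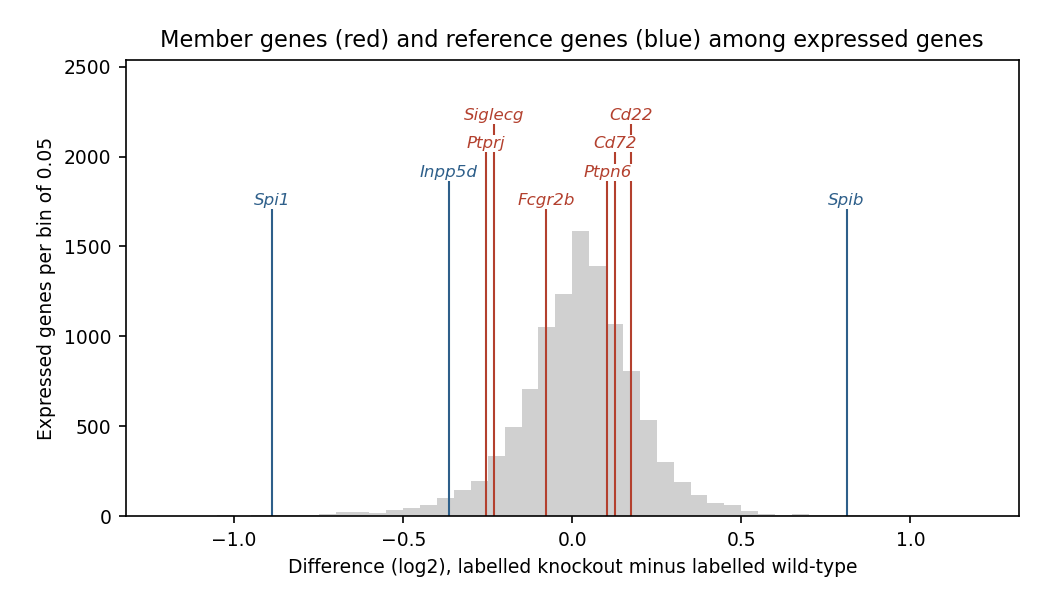
Number of expressed genes per bin of 0.05 (vertical axis) by their difference (log2, labelled knockout minus labelled wild-type, horizontal axis), with the 6 expressed member genes in red and Inpp5d, Spi1 and Spib in blue; 10 genes lie beyond the plotted range. The members stand between -0.25 (Ptprj) and 0.17 (Cd22), and Spi1 (-0.89) and Spib (0.81) stand far outside them.

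Cd72 is known to be transcribed under ETS factors of the PU.1 group, whose recognition element is known as the PU box, with the core GAGGAA. The genes of PU.1 and Spi-B, which both belong to this group, differed in opposite directions, each by more than 0.5. Spi1, the gene of PU.1, had levels of 10.18 and 11.06, a difference of -0.89. Spib, the gene of Spi-B, which recognises the same core, had levels of 10.47 and 9.66, a difference of 0.81. The core was therefore searched on both strands in the 250 bases before each transcription start in RefSeq (GRCm38.p6). All 8 genes matched, with 10 starts in all. The core was found before 6 of these 10 starts, for 5 of the 8 genes, and before 23.3% of all 32851 starts. The genes were Cd72, Siglecg, Ptprj, Cd5 and Lair1. The longer forms GAGGAAG and AGAGGAAG, which contain the core, were found before 6 and 2 of the 10 starts (10.6% and 3.67% of all starts). The overlapping forms AGGAAG and GGAAGT were found before 7 and 4 of them (29.5% and 19.7%). A match describes letters and shows no binding, and its part in the levels was not tested.

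The windows of the expressed members are shown so that genes that differed in opposite directions can be compared. Each is 30 bases, read 5′ to 3′ on the strand of its gene, with the core or its reverse complement TTCCTC in capitals. Some of these starts are inner starts of their gene.

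Cd72, chr4:43454656-43454685, minus strand: ccaaagacctacTTCCTCttttatgacttg

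Siglecg, chr7:43407989-43408018, plus strand: tttcatcttTTCCTCctccttttctttccc

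Siglecg, chr7:43408015-43408044, plus strand: tcccccctcttcTTCCTCctcttctaagtg

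Ptprj, chr2:90580650-90580679, minus strand: ccgcccgagcggGAGGAAgcgatgaatatt

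Ptprj, chr2:90580802-90580831, minus strand: gggagggggcgcTTCCTCcggccgcgggag

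Ptprj, chr2:90479356-90479385, minus strand: tattttcccattGAGGAAggtcctaacaca

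The core stood 47 to 42 bases before the start of Cd72, which was higher on the knockout-labelled array, and before starts of Siglecg and Ptprj, which were lower. Cd22, Fcgr2b and Ptpn6 had no match to the core in this window. Nothing about either factor follows from these matches.

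Among other genes of the inhibitory system 0 of the expressed ones reached a difference of 0.5. These lists and all others here were drawn up from general knowledge of the pathway, with earlier results of these data known. The inhibitory role of each listed gene was not checked, so the lists may hold genes that act in other ways. A difference of at least 0.5 was reached upward by 0.681% and downward by 1.31% of expressed genes. Counts of higher genes in each list are to be read against the 56.9% of all expressed genes that were higher. Of 19 genes measured from the list of other inhibitory receptors, 11 were expressed. Among these 11, 4 were higher and 7 lower on the knockout-labelled array, with a median of -0.06 and none at 0.5. Vsir, the gene of the checkpoint receptor VISTA, was highest (0.21), and Sirpa, the myeloid receptor for CD47, was lowest (-0.41). Of the 11, 3 lay below the central 95% of expressed probe sets, which were Sirpa, Pirb and Btla. Pirb, a paired immunoglobulin-like receptor of myeloid and B cells, had levels of 6.93 and 7.33, a difference of -0.40. Btla, an attenuator receptor that is abundant on B cells, had levels of 12.26 and 12.64, a difference of -0.38. Pirb and Btla were chosen after their values were seen.

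Downstream effectors were evenly split. Of 26 measured, 21 were expressed, 10 higher and 10 lower with 1 at 0, a median of 0.00 and none at 0.5. The lowest was Inpp5d (-0.36) and the highest was Inppl1 (0.49), which encodes SHIP2, the broadly expressed relative of SHIP1, and the only one of the 21 outside that central range. Genes of ligands and of sialic acid synthesis gave 11 expressed of 19 measured, 9 higher and 2 lower, with a median of 0.06 and none at 0.5. Slc35a1, the transporter that brings activated sialic acid into the Golgi, was highest (0.33), and Cmah, the enzyme that hydroxylates sialic acid into the form that mouse CD22 prefers, was lowest (-0.11). St6gal1, which makes the α2,6 linkage that CD22 binds, had levels of 12.39 and 12.23. Sema4d, the gene of CD100, had levels of 10.82 and 10.81. These 2 were chosen after their values were seen.

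On the activating side of the antigen receptor all 17 measured genes were expressed, 11 higher and 6 lower, a count near the background, with a median of 0.06 and none at 0.5. Blk, a SRC-family kinase, was highest with levels of 9.64 and 9.14, a difference just under 0.5. Pik3ap1, the adaptor BCAP, was lowest (-0.43). Of 10 Fc receptor genes measured, 5 were expressed, 2 higher and 3 lower, with a median of -0.08. The member Fcgr2b is 1 of these 5, and the median is its own difference. Fcer2a, the low-affinity IgE receptor CD23, was highest (0.37), and Fcer1g, the activating Fc receptor chain of myeloid cells, was lowest (-0.21).

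**Figure D4:**
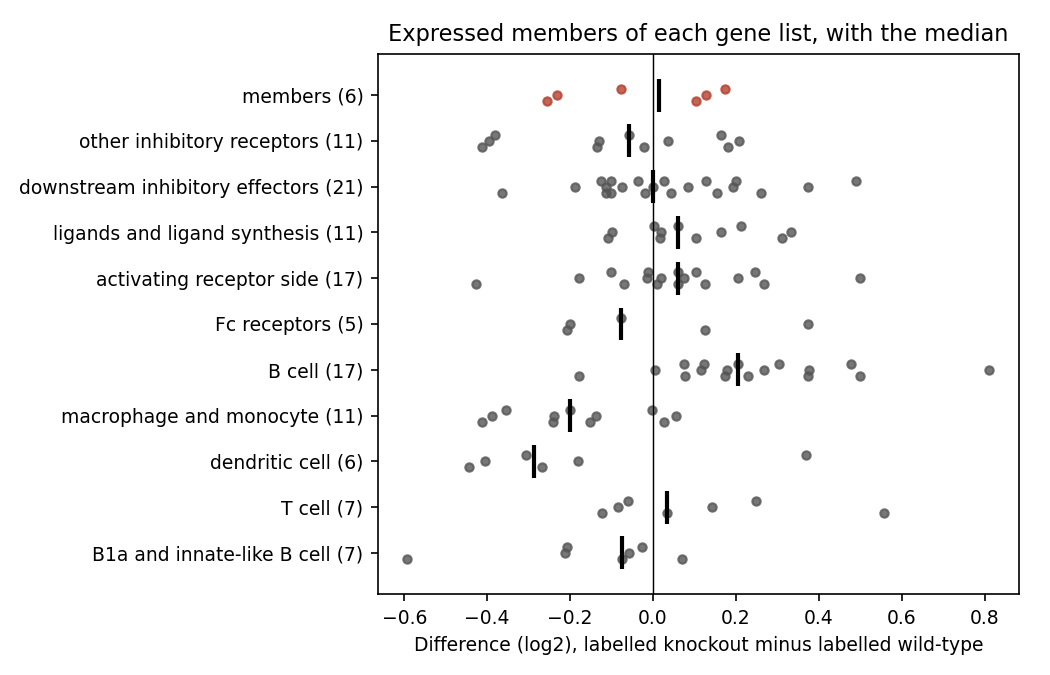
Difference (log2, labelled knockout minus labelled wild-type, horizontal axis) of each expressed gene in the member set (red) and in 10 other lists (grey), with the median as a bar and the number of expressed genes in brackets. The member genes lie on both sides of 0 around a median of 0.01, while the B cell markers (median 0.20) lie mostly right of 0 and the macrophage and dendritic cell markers (-0.20 and -0.29) mostly left of it. The members Fcgr2b and Cd22 are drawn again among the Fc receptors and the B cell markers.

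Markers of several cell types differed alongside the members. In RNA of a whole culture, fewer cells of a type and less RNA per cell cannot be told apart. All 17 measured B cell markers were expressed, 16 of them higher on the knockout-labelled array, with a median of 0.20 and mean levels of 11.52 and 11.28. Cd22 is 1 of these 17. The differences of Cd22 at its highest set (0.17), Cd72 (0.13) and Ptpn6 (0.10) were below that median, and Siglecg, also a gene of B cells, lay on the other side of 0. Spib was the highest marker and Bank1, an adaptor of the antigen receptor, was the lowest (-0.18). Of 17 macrophage and monocyte markers measured, 11 were expressed, 2 higher and 9 lower, with a median of -0.20 and mean levels over all 17 of 6.89 and 7.09. Ccr2, a chemokine receptor gene of monocytes, was highest (0.06) and Sirpa lowest. Of the expressed members, none of which is in this list, Fcgr2b, Ptprj and Siglecg were lower as well, while Cd22, Cd72 and Ptpn6 were higher. Itgam, Mrc1, Marco, Fcgr3, Vcan and Cx3cr1 were under the level for expression on both arrays, while others were well above it, chosen after their values were seen. Cybb, an oxidase subunit that B cells also make, had levels of 12.15 and 12.15, and Tyrobp, a signalling adaptor of myeloid and natural killer cells, had levels of 8.97 and 9.36. Adgre1 (7.26 and 7.24) and Csf1r (7.52 and 7.65), also chosen after their values were seen, were nearer to that level. Whether myeloid cells had a part in the value of any member was not tested.

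Dendritic cell markers gave 6 expressed of 11 measured, 1 higher and 5 lower, with a median of -0.29, Batf3 highest (0.37) and Zbtb46 lowest (-0.44). T cell markers, which bear on Cd5, gave 7 expressed of 11 measured, 4 higher and 3 lower, with a median of 0.04. Thy1 was highest (0.56) and Cd3d lowest (-0.12). Plasma cell genes gave 6 expressed of 7, 4 higher and 2 lower, with a median of 0.04. The lower ones were Prdm1 (-1.19) and Jchain (-0.56), both by 0.5 or more, and Slamf7 was highest (0.45). Natural killer cell markers had a median of 0.01 over 5 expressed of 9, with Gzma highest (0.17) and Tbx21 lowest (-0.21). Stem and progenitor markers had a median of -0.12 over 5 of 10, with Lmo2 highest (0.17) and Slamf1 lowest (-0.45). Neutrophil markers had a median of -0.05 over 3 of 13, with Camp (-0.07) lowest and Lcn2 highest (-0.05), and of 8 mast cell and basophil markers only Hdc (-0.10) was expressed. Their part in the member values was not tested.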

How the data were processed

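Total RNA was labelled with biotin through the Affymetrix 3′ IVT Express kit, per the labels' protocols. The authors deposited 1 table of log2 intensities for 45101 probe sets (3.09 to 15.4). The log2 unit was read from the values. Neither summarisation nor normalization is stated in the sources used here. After sorting, the arrays differed nowhere by more than 0.063, so a difference in total RNA would not show. Probe sets were named from the platform annotation, and of 34945 with a single gene 34741 matched RefSeq (GRCm38.p6) by Entrez number with 0 symbols changed.

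The rest was computed here: differences, counts at 0.5, medians and the agreement of probe sets of a gene. The counting code was run on simulated data in which every shifted set had to reach 0.5 and no other set could. That outcome was fixed in advance, so it checks the code alone and says nothing about the real differences. List symbols with no such set were not analysed here. Named were all members and, of each list, the highest and lowest expressed gene and those at 0.5 or more, plus Mir155hg, Spi1 and Inpp5d as references. Exceptions are marked where they occur. Bach1, also a reference, had expressed sets at -1.06 and -0.34. Members and lists were chosen with earlier results of these data known. No p-value was computed, and with 1 array per label none could be left out. Alternatives were quantile normalization, a loess curve (span 0.3), median centring, no filter, a filter at the 75th percentile, plain _at probe sets and the mean of a gene's sets. The software was NumPy 2.4.6, pandas 2.3.3, matplotlib 3.10.9 and statsmodels 0.14.6 under Python 3.11.15.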

Additional observations from a re-analysis of the deposited data

How the results depend on the processing

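The direction of each of the 6 expressed member genes was the same under every alternative that kept the gene. The filters and the restriction to plain sets could not change it, since each kept gene holds the same probe set under them. The mean of sets could not change it either, since all sets of each of these genes lie on the same side of 0. Centring moved each difference by 0.034, and quantile normalization could move it by no more than 0.063. Both are smaller than the smallest gene difference, -0.077 for Fcgr2b, so neither could turn a direction. Only the loess curve could have done so, and it kept all 6 directions. Cd22 ranged from 0.14 to 0.21, Cd72 from 0.087 to 0.13, Ptpn6 from 0.070 to 0.11, Fcgr2b from -0.13 to -0.077, Siglecg from -0.27 to -0.23 and Ptprj from -0.36 (mean of its 4 sets) to -0.25. With plain _at probe sets only, 3 member sets instead of 5 were higher on the knockout-labelled array, because Cd72 has no plain set and Ptpn6 loses 1, and Fcgr2b leaves the expressed genes. Without the filter on low values 1 member set instead of 0 reached 0.5, namely 1427629_at of Ptprj. The median of the member genes lay near 0 and its sign turned under quantile normalization (-0.015), loess subtraction (-0.025), median centring (-0.020), plain sets (-0.063), the mean of a gene's sets (-0.0079) and no filter (-0.12, with Cd5 and Lair1 included). With the filter at the 75th percentile the median of the other inhibitory receptors was 0.17 instead of -0.06 and that of the Fc receptors 0.13 instead of -0.08, over fewer genes. Among marker lists, the stem and progenitor median went from -0.12 to -0.27 with that filter, with plain sets and with the mean of sets, and the B-1a median from -0.08 to -0.21 with that filter. The T cell median went from 0.04 to -0.06 with that filter and without any, and without any filter the dendritic cell median was -0.18 instead of -0.29, the natural killer median -0.09 instead of 0.01 and the mast cell and basophil median 0.01 instead of -0.10. No paired analysis was possible because each label has 1 array. The single array per label limits every value here, and Cd5, Lair1 and the low sets of Ptprj and Fcgr2b lie under the array median, where no detection call separates signal from background.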
